A study of Rattus norvegicus with 5 samples.

Results

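The resting gene expression of the fat around the pancreas was described from the 3 arrays of chow-fed rats, Standard diet 1, 2 and 3, which are 3 of the 5 arrays in the series. The animals were male Wistar rats aged 7 weeks at the start, housed singly, and kept for 30 days on a standard chow that supplied 8% of calories as fat. The other 2 arrays came from rats on a cafeteria diet and are used here only for a check of the array controls. Each array was hybridised with RNA from a separate sample of whole mesenteric fat cut from around the pancreas. The labels call the samples independent but do not say whether each came from 1 rat. Since all 3 arrays belong to 1 group, every value below is a description, and no test was run.

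White fat is built from adipocytes that store triglyceride in a single large droplet, supported by fibroblasts and progenitors, vessels, nerves and immune cells. In the mesentery it is covered by mesothelium. The fat lies directly against the lobules of the pancreas, whose acinar cells make the digestive enzymes and whose islets make insulin and glucagon.

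Each gene was represented by the 1 probe set with its symbol alone and the highest mean over the 3 arrays, which gave 14217 genes. Values are log2 signals, so 1 unit is a 2-fold difference. Probe sets bind with different strength, so the order of genes below is an order of brightness and not of transcript copies. As a guide to dim signal, the 95th percentile of 28 chemoreceptor genes, which are known for the nose and tongue rather than fat, was taken as the dim reference and lay at 4.69. Of all genes, 10853 (76.3%) had a mean above it, and the median gene lay at 7.02. The brightest decile, 1422 genes, lay above 9.67.

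The 3 arrays were close to each other over most genes. Pearson's r across the 14217 genes, which are not independent of each other, was 0.993 between Standard diet 1 and 2, 0.991 between 1 and 3, and 0.994 between 2 and 3. Among the genes above the dim reference the median SD over the 3 arrays was 0.0936, a factor of 1.07, and 9897 (91.2%) spanned less than 0.5 units. The hybridisation controls set Standard diet 1 apart. These are RNAs added in fixed amounts to every hybridisation, and all 18 of their probe sets were lowest on that array, with a mean of 9.07 against 10.04 and 10.03 on the others and 10.01 and 10.12 on the cafeteria arrays. The median difference of Standard diet 1 from the mean of the other 2 was -0.995, or 1.99-fold. The 3′ minus 5′ difference of the control probe sets, a sign of RNA quality, was 0.79, 0.99 and 1.22 for actin and 0.12, 0.31 and 0.33 for GAPDH on Standard diet 1, 2 and 3, lowest on 1 and highest on 3. The part of either in the gene values was not tested.

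**Figure D1:**
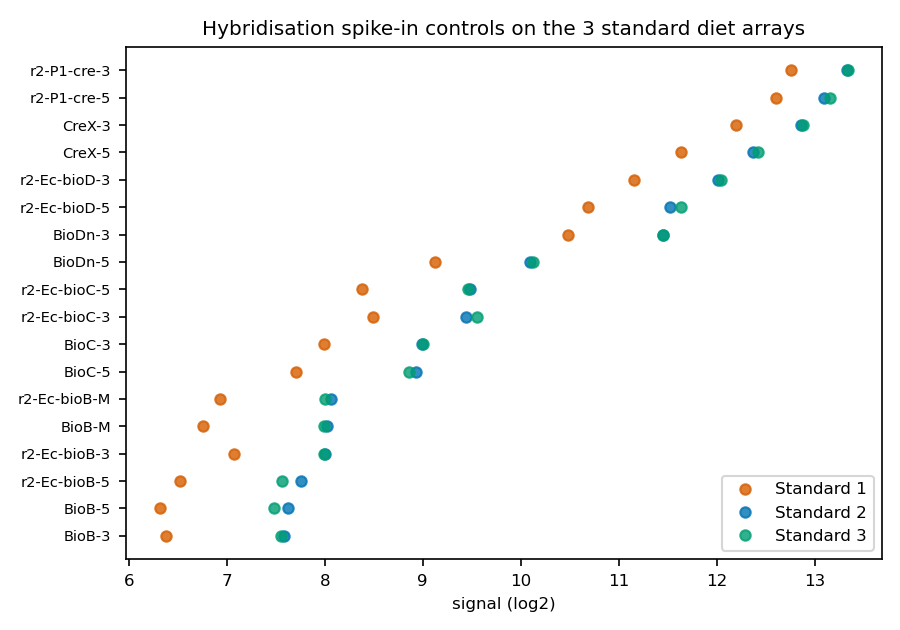
Signal (log2, horizontal axis) of the 18 hybridisation spike-in probe sets, 1 per line, on the 3 standard diet arrays, 1 point per array. On every line the point of Standard diet 1 is the lowest, a median of 1.99-fold below the mean of the other 2 arrays.

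The brightest genes were those of the mitochondrial genome, the ribosome and the fat cell. The mitochondrially encoded cytochrome oxidase subunits COX1 and COX2 led, with means of 13.94 ± 0.09 and 13.94 ± 0.06 (SD, n = 3). They were followed by Car3, a carbonic anhydrase of adipocytes and muscle, at 13.90 ± 0.09, and by Cfd, the secreted protease adipsin, at 13.63 ± 0.04. Of the 50 brightest genes, 17 encoded ribosomal proteins and 7 were on the white adipocyte list: Car3, Cfd, Mgst1, Fabp4, Thrsp, Lpl and Adipoq. Col3a1, Dcn and Gsn came from the fibroblast list, and Lyz2, the lysozyme of macrophages, from the macrophage list. Another 16 were on no list, among them Sncg, which encodes gamma-synuclein, at 13.39 ± 0.02, and the intermediate filament gene Vim at 13.14 ± 0.02.

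The label of white fat was borne out by its markers. All 28 measured genes of the white adipocyte list lay above the dim reference and 24 in the brightest decile, where 1422 of all 14217 genes lie, and the list's median was 11.98. Adipoq, the adipocyte hormone adiponectin, read 12.94, 13.09 and 13.08 on Standard diet 1, 2 and 3. The fatty acid carrier Fabp4 read 13.29, 13.44 and 13.54. Lpl, the lipase that frees fatty acids from circulating triglyceride, read 13.02, 13.23 and 13.18. On these 3 genes the arrays spanned 0.25 units or less, while Retsat, a retinol saturase of adipocytes named after its values were seen, read 12.26, 12.99 and 12.79. Lep, which encodes leptin, was dimmer and read 9.30, 9.14 and 8.77, highest on Standard diet 1 and lowest on 3. Markers of brown fat were dim as a group: 8 of 17 were above the dim reference, with a list median of 4.58, and the brightest, Cidea at a mean of 10.36, is also on the white adipocyte list. Ucp1, the uncoupling protein that defines brown fat, read 3.61, 3.72 and 3.61, below the dim reference on all 3 arrays; it was named after its values were seen.

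**Figure D2:**
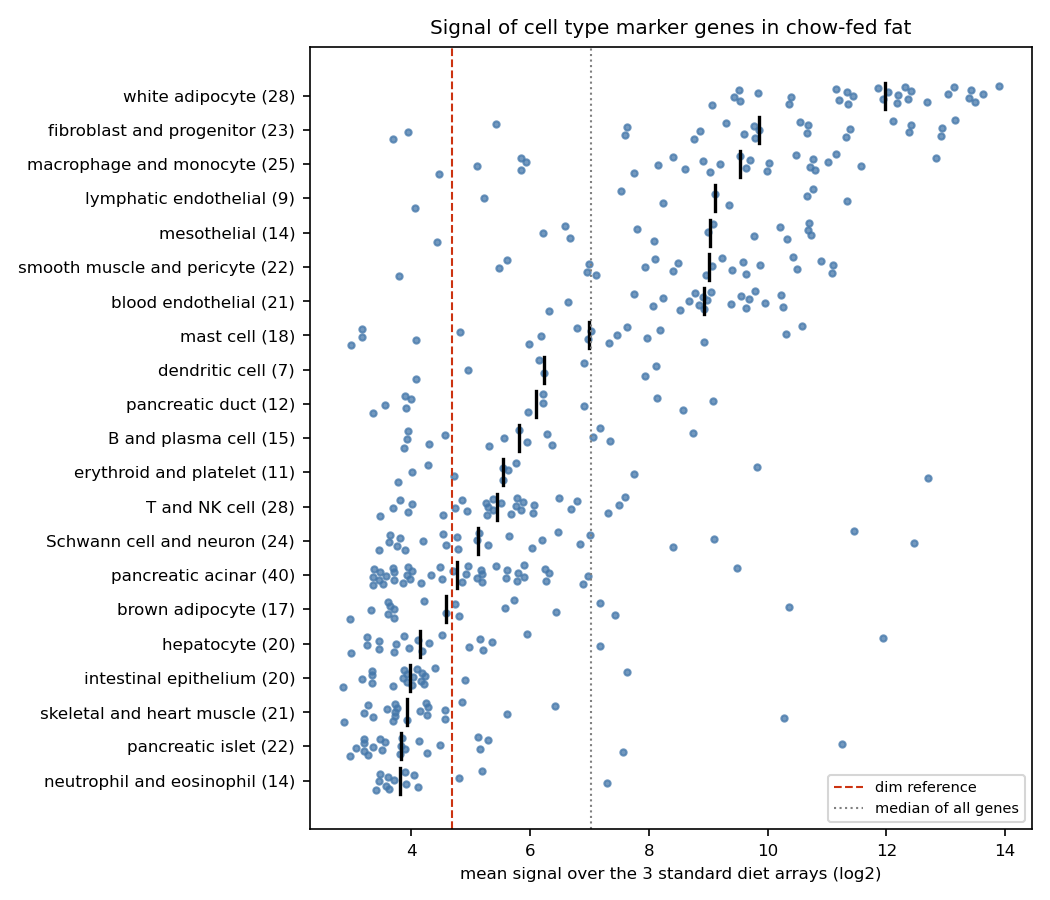
Mean signal over the 3 standard diet arrays (log2, horizontal axis) of the measured genes on each of 21 cell type lists, 1 point per gene, with the number measured in brackets and the list median as a black bar. White adipocyte genes, with a median of 11.98, lie farthest right, and the neutrophil, islet, muscle, intestinal, hepatocyte and brown adipocyte lists have medians left of the dim reference at 4.69.

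Among the lists of other cells, that of fibroblasts and progenitors had the highest median. Of the fibroblast and progenitor list, 21 of 23 measured genes were above the dim reference and 14 were in the brightest decile, with a median of 9.85. Col3a1, a fibrillar collagen, read 13.17, 13.20 and 13.11, and the matrix proteoglycan Dcn read 13.07, 12.95 and 12.78. All 43 measured extracellular matrix genes were above the dim reference, 33 of them in the brightest decile. The mesothelial list had a median of 9.03, led by Msln, the surface protein mesothelin, at 10.76, 10.76 and 10.67. Blood endothelial genes were all above the dim reference, 21 of 21, with a median of 8.93, and Plvap, a protein of capillary fenestrae, read 10.11, 10.37 and 10.28. Of the lymphatic endothelial list 8 of 9 were above it, led by Lyve1, a hyaluronan receptor that macrophages can carry too, at 11.48, 11.38 and 11.15. These are pieces of whole tissue, so fewer cells of a type and less RNA per cell cannot be told apart.

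Macrophages were the most brightly marked immune cells. Of 25 measured macrophage and monocyte genes, 24 were above the dim reference and 11 in the brightest decile, with a median of 9.53. Lyz2 read 12.95, 12.86 and 12.68, and C1qa, a subunit of complement C1q, 11.29, 11.21 and 10.94. Mast cell genes had a lower median of 7.00, but the mast cell carboxypeptidase Cpa3 was bright at 11.15, 10.65 and 9.92 and the chymase Cma1 read 10.57, 10.22 and 10.13. Both were highest on Standard diet 1 and lowest on 3. The T and NK cell list had a median of 5.45 with 22 of 28 genes above the dim reference, and the B and plasma cell list 5.82 with 10 of 15. The neutrophil and eosinophil list was near background, with 3 of 14 above the dim reference and a median of 3.80. Hbb, a haemoglobin beta chain of red blood cells, was bright on all 3 arrays at 12.78, 12.64 and 12.71.

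Markers of most neighbouring organs were dim. Of the intestinal epithelium list 2 of 20 genes were above the dim reference, of the islet list 5 of 22 and of the skeletal and heart muscle list 4 of 21, with medians of 3.97, 3.82 and 3.93. Each list had exceptions. Cpe, a peptide-processing enzyme of many secretory cells, was the brightest on the islet list at 11.36, 10.50 and 11.92. Myh1, a muscle myosin heavy chain, read 10.25, 10.14 and 10.44 while the median of its list lay below the dim reference. The Myh1 probe set is of a kind that may also bind other transcripts, and Myh2, Myh4, Myh6 and Myh7 had means below that reference. Insulin, read by Ins1, was 5.11, 5.38 and 5.38. The nerve list had a median of 5.12 but held S100b, a calcium-binding protein of Schwann cells and also of adipocytes, at 12.44, 12.53 and 12.45. Of the hepatocyte list 7 of 20 were above the dim reference, led by Alb, serum albumin, at 12.86, 11.17 and 11.79.

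Among the functional lists, the cytosolic ribosome had the highest median, 12.54, with 38 of 43 genes in the brightest decile and a median SD of 0.05. Rps29 read 13.60, 13.60 and 13.61. The exceptions were chosen after their values were seen: Rps13, Rpl30 and Rpl28 had means of 4.27, 4.11 and 4.02, below the dim reference, although every cell uses these genes. A dim value on this array is therefore not the absence of a transcript. The oxidative phosphorylation list, whose genes encode the respiratory chain, had 65 of 78 genes in the brightest decile and a median of 10.76. The fatty acid synthesis list had 13 of 20 there and a median of 10.13. It was led by Thrsp, a lipogenic regulator, and Scd, the stearoyl-CoA desaturase, with means of 13.39 ± 0.17 and 13.18 ± 0.41. The lipid storage and lipolysis list had 16 of 25 there and a median of 10.54. Among secreted factors Igf1, insulin-like growth factor 1, was bright at 12.69, 12.54 and 12.58, while Igfbp3, the main carrier of circulating insulin-like growth factors, read 10.38, 10.81 and 11.13.

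Few genes differed much between the chow-fed samples. Of the 10853 genes above the dim reference, 173 (1.59%) spanned more than 1 unit and 46 more than 2. A gene was called high, or low, on an array when it lay more than 1 unit above, or below, both of the others, and 85 genes met this on at least 1 array. The rule is a fold rule, and no test is possible with 1 array against 2. At its edge, Gjb2 stood 1.00162 units above the next array and was counted, and Nexn, at 0.995523, was not. Standard diet 1 had 30 high genes (0.276%) and 7 low genes (0.0645%). Standard diet 2 had 7 high genes (0.0645%) and 19 low genes (0.175%), and Standard diet 3 had 25 high genes (0.23%) and 10 low genes (0.0921%). Over all 14217 genes, dim ones included, the high and low shares were 0.26% and 0.0492% on Standard diet 1, 0.0492% and 0.141% on Standard diet 2, and 0.253% and 0.0703% on Standard diet 3. Of the 85 genes, 24 had a further named probe set. Of 18 such probe sets above the dim reference, 14 lay farthest from their own mean on the same array and side as the probe set used.

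Pancreatic digestive enzymes, bright on Standard diet 1, led the genes that varied most. Of 40 measured genes on the acinar list, 19 were high on that array, against 0.26% of all measured genes, and 0 were high or low on the others. The gap to the nearer of the other arrays was over 2 units for 17 of the 19 and over 4 units for 7, with a median of 3.71 units, or 13.1-fold. On the other 2 arrays 16 of the 19 read below the dim reference, so these folds set a signal against background brightness. Of the 30 genes above the dim reference that were high on Standard diet 1, 16 were on the acinar list and 14 were not.

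Starch and fat digesting enzymes were among the most different. The pancreatic amylase Amy2a3 read 9.68 on Standard diet 1 and 2.79 and 3.12 on 2 and 3, the widest range of any gene above the dim reference. Pnlip, pancreatic triglyceride lipase, read 10.11, 4.23 and 4.45, and Clps, its cofactor colipase, 7.70, 3.86 and 3.75. In each case Standard diet 1 alone was bright. The related lipase Pnliprp1 read 8.58, 3.48 and 3.51, the bile salt-dependent lipase Cel 8.35, 4.41 and 4.63, and the phospholipase Pla2g1b 7.07, 3.53 and 3.51.

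The proteases followed the same order of arrays. Prss1, trypsin, read 9.75, 3.89 and 4.07, and Prss3b, a trypsin gene that was not on the list, 9.55, 3.61 and 3.61. Trypsin genes are near-identical copies, so the 2 probe sets may share transcripts. The elastase Cela2a read 9.79, 3.71 and 3.83, the chymotrypsins Ctrc and Ctrb1 read 9.75, 4.76 and 4.44 and 7.90, 3.44 and 3.41, and the carboxypeptidase Cpb1 read 8.37, 3.94 and 4.50. On Cela1 and Cpa1 the other arrays were themselves above the dim reference. Cela1, another elastase, read 9.05, 6.19 and 5.71, and Cpa1, a carboxypeptidase, 9.37, 5.34 and 5.94. Rnase1l2, a ribonuclease off the list, read 9.37, 6.17 and 6.17.

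The remaining 21 acinar genes did not meet the rule, the widest gap among them being 0.72. Of the 32 secreted enzymes, cofactors and granule proteins, 19 were called high on Standard diet 1, against 0.26% of all measured genes, and 25 were highest there. Of 8 transcription factors and other intracellular or membrane proteins, 0 were called and 6 were highest there. The share of all genes that were highest on Standard diet 1 was not counted, so the counts of 25 and 6 have no reference. Of the 8, 3 had a mean above the dim reference, against 18 of the 32. That mean takes in Standard diet 1, so the called genes raise the count of 18 and it is no separate difference. This split by role was made after the values were seen. Ptf1a and Bhlha15, transcription factors of acinar cells, read 3.74, 3.70 and 3.70 and 3.52, 3.52 and 3.52, all below the dim reference. Cela3b, an elastase, was the exception among bright members: it read 9.86, 9.70 and 8.88, bright on all 3 arrays. Reg3a and Reg3g, secreted lectins that injured pancreas makes in large amounts, were below the dim reference on all 3 arrays. The lists of other pancreatic cells differed far less. The islet list stood apart from its own mean by 0.00, -0.05 and 0.05 units on Standard diet 1, 2 and 3. The duct list did so by 0.11, -0.08 and -0.03, against 1.34, -0.68 and -0.66 for the acinar list. By their mean over the 3 arrays, 5 of 22 islet, 7 of 12 duct and 21 of 40 acinar genes were above the dim reference. Most islet genes thus read as background. The acinar count rests largely on Standard diet 1, since only 7 of the 40 reached the reference on Standard diet 2 or 3.

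**Figure D3:**
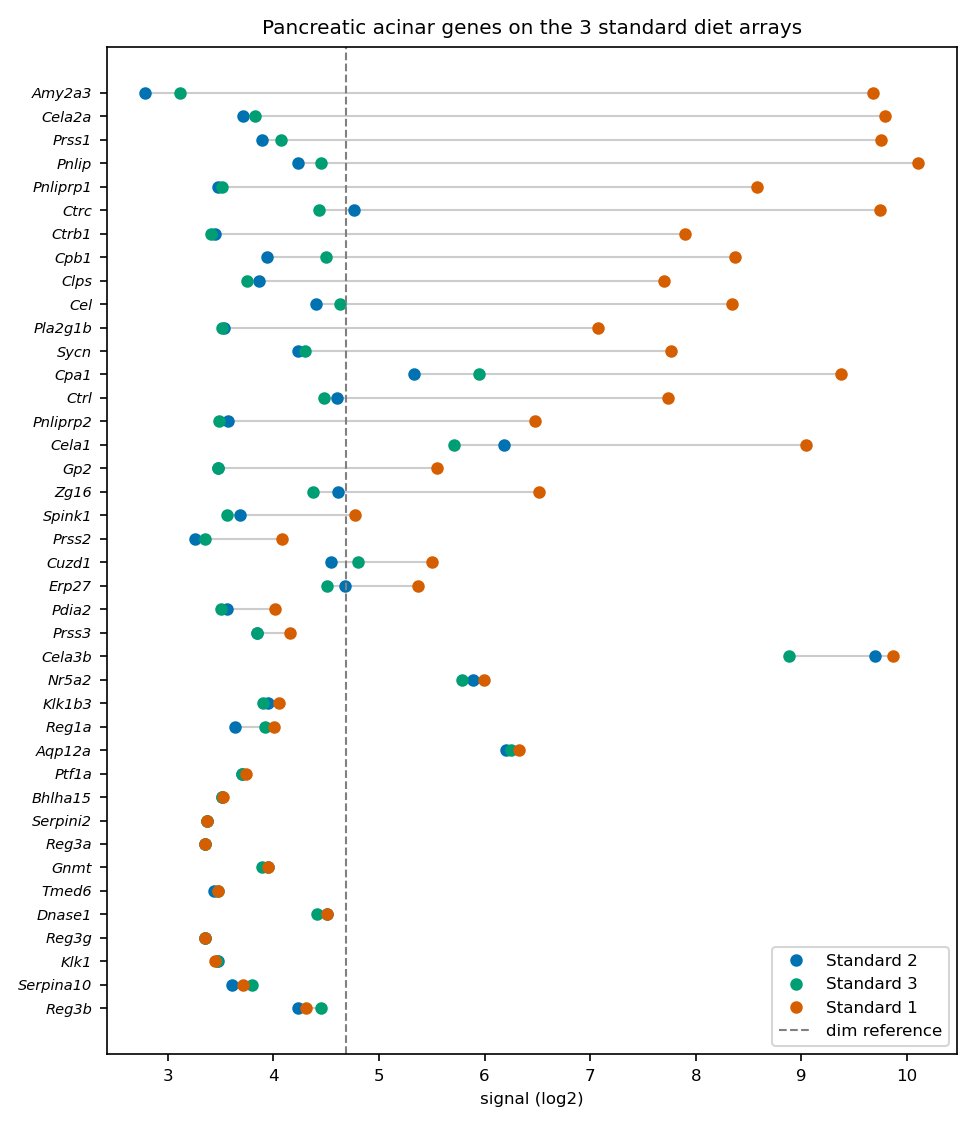
Signal (log2, horizontal axis) of the 40 measured pancreatic acinar genes, 1 line per gene and 1 point per standard diet array, ordered by how far Standard diet 1 lies above the other arrays. Amy2a3 at the top reads 9.68 against 2.79 and 3.12, and the genes in the lower part of the plot show little difference; the dashed line is the dim reference at 4.69.

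Acinar enzyme genes are known to be driven together by the PTF1 complex, which binds a CACCTG box and a nearby TTTCCC box. The stretches around the CACCTG box are shown for 4 called enzymes that hold it. They are taken from the RefSeq promoter table on build GRCr8, 5′ to 3′ on the strand of the gene, with the matches in capitals. They lie before the start sites of Cela1 (chr7:133665119-133665224, minus strand), Ctrb1 (chr19:56567129-56567228, minus), Prss1 (chr4:71331018-71331123, plus) and Cpb1 (chr2:104714764-104714869, minus).
Cela1: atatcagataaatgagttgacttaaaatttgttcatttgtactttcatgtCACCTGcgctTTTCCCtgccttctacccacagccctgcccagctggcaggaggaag
Ctrb1: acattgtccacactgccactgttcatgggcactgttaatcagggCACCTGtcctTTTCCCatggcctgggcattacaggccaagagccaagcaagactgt
Prss1: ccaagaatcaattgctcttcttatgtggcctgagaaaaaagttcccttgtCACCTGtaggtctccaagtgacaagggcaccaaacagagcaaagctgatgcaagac
Cpb1: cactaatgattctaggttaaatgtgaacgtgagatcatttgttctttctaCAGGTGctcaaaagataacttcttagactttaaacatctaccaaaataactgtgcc
In Cela1 and Ctrb1 the 2 boxes stood side by side, and in Cpb1 the box was on the other strand. With both strands searched from 250 bases before to 50 after the start, CACCTG was found in 20 of the 33 acinar genes with a promoter in the table (60.6%) and in 5523 of all 27457 genes (20.1%). TTTCCC was found in 15 of 33 (45.5%) and in 26.7% of all genes. Of the 15 called genes with a promoter, 8 held CACCTG (53.3%) and 8 held TTTCCC (53.3%), so CACCTG was no more frequent among them than on the whole list. A match is a description of these letters and not a measured site.

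Of the 14 other genes high on Standard diet 1, the widest gaps after Prss3b and Rnase1l2 were those of RT1-N2, a class I histocompatibility gene, at 6.75, 4.14 and 4.56, and Ccr2, the chemokine receptor of monocytes, at 6.86, 5.57 and 5.36. Alb, of the hepatocyte list, read 12.86, 11.17 and 11.79 and a further probe set of it 11.63, 9.63 and 10.21. Itgam, an integrin of myeloid cells, read 8.63, 7.55 and 7.05. Mast cell genes were also brightest there on average, at 0.30 units above their own mean against -0.05 and -0.25, although 0 of the 18 met the rule and the value was 0.17 without Standard diet 3.

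Genes of fat synthesis lay the other way on the same array. Of 20 measured genes, 19 were lowest on Standard diet 1, where 30.3% of all genes are lowest, and 2 were called low. On average the list stood -0.38, 0.35 and 0.03 units from its own mean on Standard diet 1, 2 and 3. Without Standard diet 2 the first value was -0.21, and without Standard diet 1 the second was 0.16. Me1, malic enzyme, which supplies the NADPH for fatty acid synthesis, read 10.04, 11.75 and 11.20, and its further probe set 10.06, 11.72 and 11.20. Elovl6, an elongase of long-chain fatty acids, read 8.48, 10.20 and 9.60. Both were lowest on Standard diet 1 and highest on 2. Acly, which makes cytosolic acetyl-CoA, read 10.98, 12.23 and 11.82 without meeting the rule. The lipid storage list was lowest there for 23 of 25 genes and the white adipocyte list for 22 of 28, with smaller mean differences of -0.18 and -0.14. The acinar genes were high and the hybridisation controls low on this array, and the part of either in these values was not tested.

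Interferon-induced genes made up 3 of the 7 low genes of Standard diet 1. Mx2, an antiviral GTPase, read 5.79, 7.88 and 8.41, with a further probe set at 5.35, 5.96 and 6.60. Oas1a, which makes the activator of ribonuclease L, read 6.32, 7.34 and 7.37, and Usp18, a brake on interferon signalling, 6.64, 7.66 and 7.74. On these 3 genes Standard diet 1 was the lowest, though above the dim reference. Of the whole list of 31 genes, 3 were called low on Standard diet 1, against 0.0492% of all measured genes. The list was lowest there for 16, against 30.3% of all genes, and on Standard diet 3 for 12, against 30.2%. Its mean difference was -0.19 against 0.15 and 0.03, and -0.11 on Standard diet 1 without Standard diet 2. Bright members such as Ifi27, at 12.07, 12.32 and 11.98, and Bst2, at 10.60, 10.86 and 10.66, spanned less than 0.5 units. Cxcl10, a chemokine that interferon induces, was instead high on Standard diet 2, at 5.73, 6.86 and 5.73.

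Interferon acts on these genes through an element with the letters GAAANNGAAA. It is shown for Oas1a and Cxcl10, which were apart on different arrays, from the same table and build, at chr12:41330381-41330465 and chr14:15988816-15988882, both on the plus strand, with the matches in capitals.
Oas1a: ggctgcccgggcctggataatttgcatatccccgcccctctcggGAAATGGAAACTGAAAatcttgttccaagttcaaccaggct
Cxcl10: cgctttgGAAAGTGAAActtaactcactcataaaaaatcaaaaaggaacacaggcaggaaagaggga
In Oas1a 2 matches overlap. On either strand the element was found in 16 of the 26 interferon genes with a promoter in the table (61.5%) and in 1131 of all genes (4.12%).

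Smooth muscle genes separated Standard diet 2 from Standard diet 3. Of 22 measured genes on the smooth muscle and pericyte list, 6 were low on Standard diet 2, against 0.141% of all measured genes, and 11 were high on Standard diet 3, against 0.253%. The list stood -0.03, -0.80 and 0.83 units from its own mean on Standard diet 1, 2 and 3. With 1 array left out, the list's own mean is that of 2 arrays. The values were then -0.39 on Standard diet 2 without 3 and 0.43 on Standard diet 3 without 2. The mean signal of the list was 8.55, 7.77 and 9.41 on Standard diet 1, 2 and 3. In all, 16 of 22 were lowest on Standard diet 2, where 24.8% of all genes are lowest, and 19 of 22 were highest on Standard diet 3, where 28.4% are highest. Of the 85 called genes, 13 were both low on Standard diet 2 and high on Standard diet 3, among them Actg2, Cnn1, Des, Myh11, Tagln and Pln.

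The contractile proteins carried this order. Actg2, the enteric smooth muscle actin, read 11.03, 5.43 and 12.30 on Standard diet 1, 2 and 3, and on 2 it lay 5.59 units, or 48.2-fold, below the nearer array. Cnn1, the actin-binding protein calponin, read 9.12, 5.68 and 10.69. Myh11, the smooth muscle myosin heavy chain, read 10.49, 8.95 and 12.03, and its further probe set 7.09, 5.56 and 8.34. For all of these Standard diet 3 was the brightest, 1 lay between and 2 was the dimmest. Tagln, which encodes transgelin, read 11.12, 9.86 and 12.34, and the filament gene Des, desmin, 9.60, 8.33 and 10.98. Acta2, the actin of vascular smooth muscle, kept this order with a different spacing. It read 8.45, 8.38 and 10.08, so that Standard diet 1 and 2 lay together. Actin genes are closely related in sequence, and the share of a related transcript in each value is uncertain.

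Within the list, 15 genes were of contractile and filament proteins and their regulators, 14 of them above the dim reference. All 15 were lowest on Standard diet 2 and highest on Standard diet 3, with a median range of 1.98 units. The 7 pericyte and mural genes, which mark the cells around small vessels, had a median range of 0.34, and 0 of them spanned more than 1 unit. The list was split by these roles after the values were seen, as were the next pair of genes named. Abcc9, a subunit of a potassium channel of mural cells, read 9.75, 9.82 and 10.03, and Rgs5, a regulator of G protein signalling in pericytes, 9.49, 9.19 and 9.03. Vip, a neuropeptide of gut neurons, also named after its values were seen, read 4.44, 3.25 and 5.92. Its mean lay below the dim reference, as did its values on Standard diet 1 and 2. It was the 1 gene of 24 measured on the nerve list to meet the rule on any array. On Standard diet 3, 0.253% of all measured genes were high. The markers of intestinal epithelium had mean differences of -0.02, 0.03 and -0.01 units. Of these 20 genes 2 were above the dim reference, so a fall in most of them could not be seen. The list holds no gene of gut muscle.

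**Figure D4:**
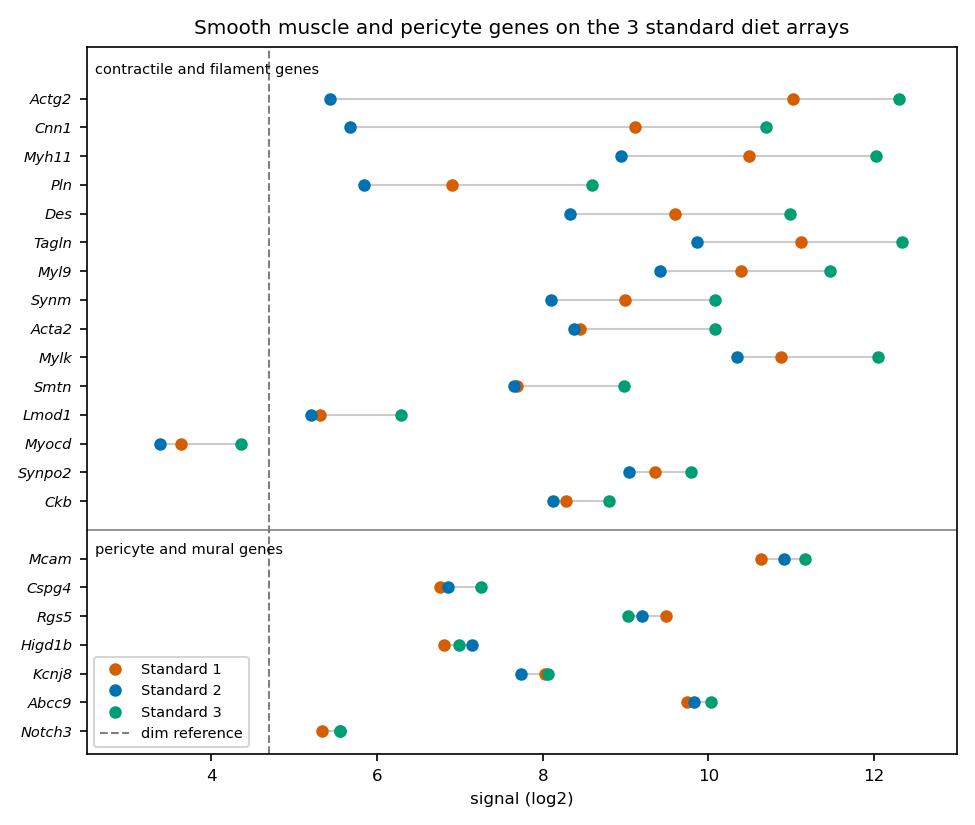
Signal (log2, horizontal axis) of the 22 measured smooth muscle and pericyte genes, 1 line per gene and 1 point per standard diet array. The 15 contractile and filament genes, with their regulators, lie above the line and the 7 pericyte and mural genes below it. Among the contractile genes Standard diet 2 is always lowest and Standard diet 3 always highest, while no pericyte or mural gene spans more than 1 unit; the dashed line is the dim reference at 4.69.

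Other genes low on Standard diet 2 included RT1-CE10, a class I histocompatibility gene, at 10.29, 7.58 and 10.36, and Tm4sf4, a membrane protein with a tetraspanin-like fold, at 6.59, which was 2.41 units below the nearer of the other arrays. Of 18 measured RT1 genes, 3 were low on Standard diet 2, against 0.141% of all measured genes, and a further gene, RT1-N2, was high on Standard diet 1. RT1 genes are a family of near-identical and highly variable copies, so which copy or allele a probe set reports is uncertain. Genes high on Standard diet 2 included Jchain and Mzb1 of plasma cells. They were the 2 called of 15 measured genes on the B and plasma cell list, against 0.0492% of all measured genes. The list's mean difference there was 0.22 units, but its median difference was 0.03. Jchain, which joins antibody molecules, read 8.42, 9.64 and 8.16 with a further probe set at 5.89, 7.31 and 5.89, and Mzb1, a chaperone of antibody secretion, read 4.91, 6.09 and 4.91. The widest gap was that of Cbr1, a carbonyl reductase, at 9.02, 11.10 and 9.35.

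Besides the contractile genes, those high on Standard diet 3 included the secreted antagonist of bone morphogenetic proteins Grem1, at 4.98, 3.36 and 6.90, Grp, the neuropeptide gastrin-releasing peptide, at 4.64, 4.11 and 6.45, and the stress gene Gadd45g, at 7.23, 7.57 and 9.29. The widest gap among genes low there was that of Clec3b, the plasminogen-binding protein tetranectin of fibroblasts, at 9.55, 10.27 and 6.45. Its further probe set, at 8.55, 8.90 and 5.48, had the same order. Clec3b was the 1 gene of 23 on the fibroblast list to be called. In all 13 of the 23 were lowest on Standard diet 3, against 30.2% of all genes, with a list difference of -0.11. Rasd1, a small G protein induced by glucocorticoids, read 10.14, 10.25 and 7.73, and the immediate early gene Fos 8.56, 8.94 and 6.93. For these Standard diet 1 and 2 were close together and 3 stood below.

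Several immune lists were dimmest on Standard diet 3. So was the endoplasmic reticulum and secretion list, with 30 of 38 genes lowest there and a mean difference of -0.10 units. All 13 measured genes of the class II histocompatibility list were lowest there, where 30.2% of all genes are lowest, as were 20 of 25 macrophage and monocyte genes, 19 of 28 T and NK cell genes and 20 of 32 cytokine genes. The differences were small, with the class II list at 0.15, 0.11 and -0.26 units from its own mean and the macrophage list at 0.20, 0.07 and -0.27, or -0.17 on Standard diet 3 without Standard diet 1. The neutrophil and eosinophil list did not follow this order, with 0.04 units on Standard diet 3, nor did the interferon list. RT1-Da, a class II chain, read 12.36, 12.29 and 11.73, and Cd74, the invariant chain, 12.30, 12.30 and 12.04. The genes called low were Cybb, the NADPH oxidase subunit of phagocytes, at 10.15, 10.13 and 8.88, and the monocyte-attracting chemokines Ccl2, at 9.45, 9.18 and 8.00, and Ccl7, at 7.43, 7.49 and 6.38, together with 7 others. The contractile genes were brightest on the same array, and their part in the lower immune signal was not tested.

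**Figure D5:**
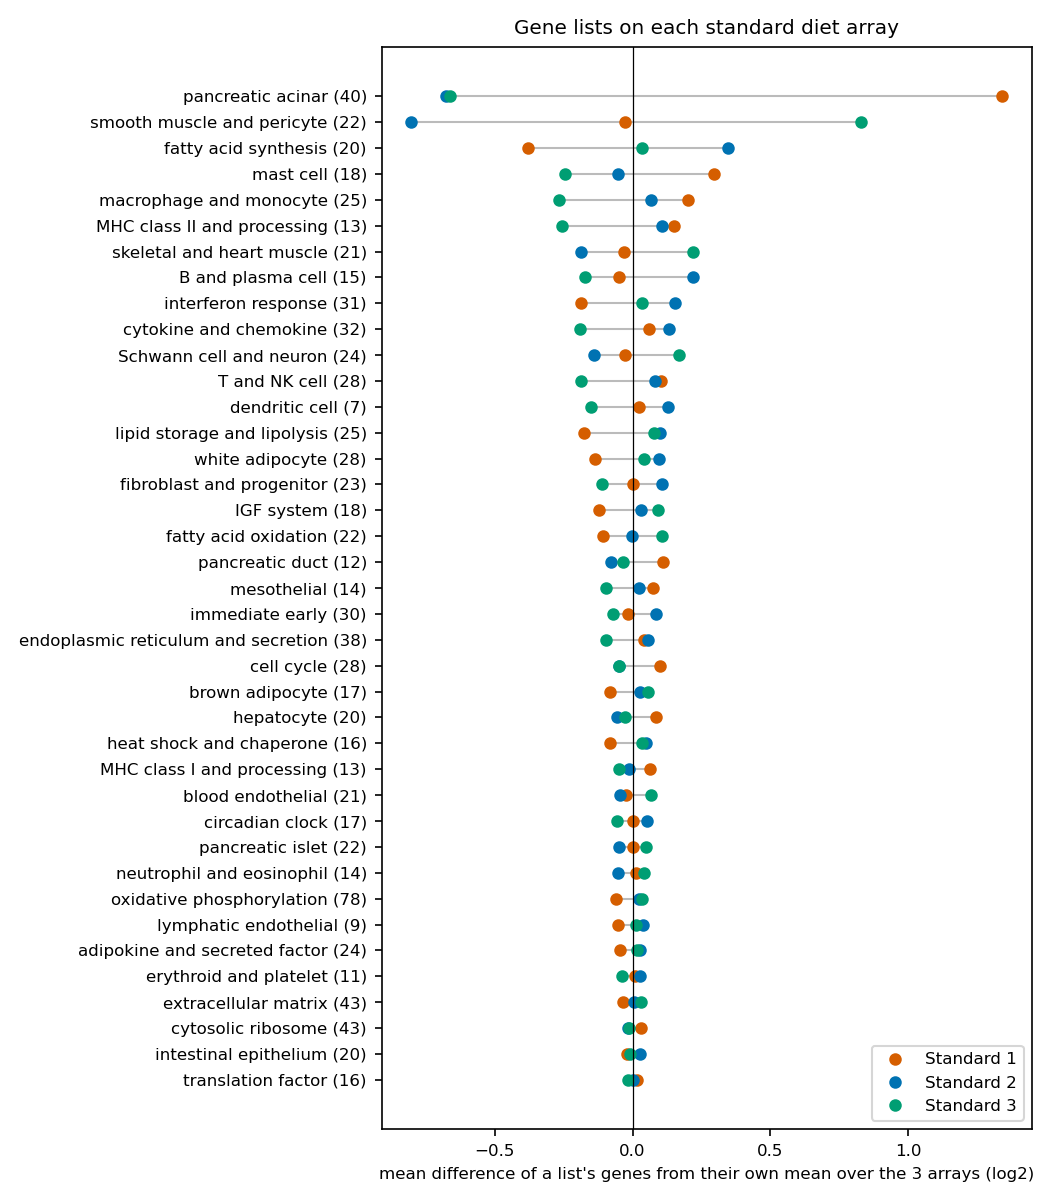
Mean difference (log2, horizontal axis) of the genes of each of 39 lists from their own mean over the 3 arrays, 1 point per standard diet array and the number of measured genes in brackets, ordered by spread. The acinar list (1.34 on Standard diet 1) and the smooth muscle and pericyte list (-0.80 on Standard diet 2 and 0.83 on 3) stand out, and the ribosome and translation factor lists lie near 0 on all 3 arrays.

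At the other end were genes with the same value on every array. The deposited values of 651 genes were identical on all 3 arrays, and those of 3313 on 2 of them, together 27.9% of genes. Among the brightest decile these included Cd81, a tetraspanin, at 12.02, Ncl, nucleolin, at 10.32, and Tomm7, a part of the mitochondrial import pore, at 10.97. The step that made these values equal is not given in the sources used here, so the genes that varied least are not ranked.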

How the data were processed

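Transcripts of the peripancreatic fat were read with the GeneChip Rat Genome 230 2.0 platform of Affymetrix. The values are log2 signals as the authors deposited them, 1 per probe set and array. RMA and the affy package are named in the submitters' processing notes, without versions. RMA makes array distributions alike, which can hide a shift shared by most transcripts. The depth of an array has no count, and 3 arrays limit the precision.

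Of 31099 probe sets, 57 controls were left out. Symbols came from GEO's platform annotation: 20826 probe sets had 1 symbol, 436 several and 9780 none. No build is stated for the array. Ribosomal kinases, assembly factors and pseudogenes that shared a list's prefix were left out by name.

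The genes named were the 30 brightest, the 25 with the largest SD, up to 8 per class of genes apart on an array, up to 6 members of each list by mean and by gap, every acinar gene, Adipoq, Lep and Igfbp3, and the 15 least varying of the brightest decile. A gene outside this rule was chosen after its values were seen. The samples, genes and lists were chosen with earlier results of these data known. Alternatives changed the probe set, normalization (with limma 3.58.1 in R 4.3.3), dim reference, fold rule and arrays used. The counting was tested on simulated data. Counts and plots were made in Python 3.11.15, the plots with matplotlib 3.10.9.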

Additional observations from a re-analysis of the deposited data

How the results depend on the processing

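Of 219 values recomputed for 23 results under 15 settings, 24 moved past the tolerance, which is 1.5 times for a count, 1 SD over the arrays for a list's mean difference and its own size for the median SD, 195 did not and 0 reversed. All 80 recomputed mean differences of gene lists kept their direction. Each was on the array where its list was highest or lowest, so leaving out another array could hardly reverse it. The mean of 2 arrays lies midway between them, so leaving out an array also changes the size by construction. It moved some by over 1.5 times. Smooth muscle moved to -0.39 on Standard diet 2 without 3 and to 0.43 on Standard diet 3 without 2. Fatty acid synthesis moved to -0.21 on Standard diet 1 without 2 and to 0.16 on Standard diet 2 without 1. Mast cell moved to 0.17 on Standard diet 1 without 3, interferon to -0.11 on Standard diet 1 without 2 and macrophage to -0.17 on Standard diet 3 without 1. With the median of all genes as the dim reference, 7108 genes were above it, 95 spanned more than 1 unit, 4 were high on Standard diet 1, 2 were high and 11 low on Standard diet 2, and 13 were high on Standard diet 3. That reference is above the mean of most acinar enzymes, which were bright on 1 array only. With a rule of 0.58 units, 691 genes spanned more than it. The counts were then 63 high and 61 low on Standard diet 1, 33 high and 49 low on Standard diet 2, and 89 high and 65 low on Standard diet 3. With a rule of 2 units, 46 genes spanned more than it, and the counts were 18 and 1, 0 and 5, and 0 and 2. With 1 array left out, 80 to 112 genes spanned more than 1 unit: 84 without Standard diet 1, 112 without 2 and 80 without 3, since 2 arrays span less than 3. Without the acinar list, 14 genes were high on Standard diet 1. The 50 brightest genes shared 41 to 50 with those of each alternative, and the median SD lay between 0.0663 and 0.0996. No paired analysis was possible because 1 group was described and no test was run. With 3 arrays of 1 group, outlying arrays could not be tested. Whether an array stands apart through its tissue piece or its handling was not tested.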

Other observations

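Some gene groups of resting fat differed little between the samples. All 17 measured circadian clock genes lay above the dim reference and 0 spanned more than 1 unit. Clock, a core activator of the daily rhythm, read 8.84, 8.89 and 8.89 on Standard diet 1, 2 and 3. The repressor Cry2 read 7.81, 8.03 and 7.93. The labels used here do not give the hour at which tissue was taken. Cell cycle genes had a median of 5.80, with 24 of 28 above the dim reference, and their brightest was Pcna, the DNA polymerase clamp, at 10.33, 10.17 and 9.91. Of 16 measured heat shock and chaperone genes, 7 were in the brightest decile, led by the cytosolic chaperone Hsp90ab1 at 12.30, 12.38 and 12.28.

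Cytokine genes ranged widely in brightness. Of 32 measured, 26 were above the dim reference and 4 were in the brightest decile. The brightest was Cxcl13, which draws B cells into lymphoid clusters, at 12.33, 12.28 and 11.83, followed by Il33, an alarm cytokine of stromal and mesothelial cells, at 12.02, 12.00 and 11.94. Tnf and Il6, inflammatory cytokines often measured in fat and named after their values were seen, read 4.78, 4.81 and 4.78, and 3.57, 3.52 and 3.47. Il6 was below the dim reference on all 3 arrays. In the insulin-like growth factor system the binding proteins Igfbp7, at 12.89, 12.91 and 12.84, and Igfbp6, at 12.05 on each array, were bright and nearly equal between samples.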
